A study of Mus musculus with 9 samples.

Results

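The genes described here encode the integrin chains that leukocytes use to hold on to other cells and to matrix, together with one of their ligands, Icam1. They were chosen by symbol: every probe set (a group of oligonucleotides read together as 1 value) annotated to Itgax, Itgam, Itgal, Itgb2, Itga4, Itgb1, Itgb7, Itgae, Itgav or Icam1 was taken from both array designs. All 10 genes, of 8388 named on the arrays, were on both designs. They had 17 probe sets among the 12488 of the first design and 18 among the 12654 of the second, 20 names in all, of which 15 were on both.

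RNA of day 10 mouse dendritic cells was measured on 9 Affymetrix arrays in groups of 3. The groups were CIITA-/- cells, which by their label lack the activator of the MHC class II genes, IAb-/- cells, which by their label lack a class II beta chain gene, and wild-type B6 cells. Experiments 2 and 3 (2 arrays a group) were on the first design, and experiment 1 (1 array a group) on the second. The labels give no allele, sex, age or culture method, and do not say whether the mutants were on the B6 background. They also leave unsaid whether the 3 arrays of a group had separate mice or cultures behind them, and every p-value given here therefore reflects array-to-array spread alone, part of which may be technical. The 2 mutant groups let a difference that goes with the loss of CIITA be set beside one that goes with the loss of a class II chain.

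An integrin is a dimer of an alpha and a beta chain that spans the membrane, and the combination decides what it binds. Itgb2 pairs with Itgal (LFA-1, which binds Icam1), with Itgam (Mac-1, a complement receptor that also binds Icam1 and fibrinogen) and with Itgax (CD11c, the surface marker by which mouse dendritic cells are usually recognised). Itga4 pairs with Itgb1 to bind Vcam1 and fibronectin, or with Itgb7 to bind Madcam1. Itgae pairs with Itgb7 to bind E-cadherin, and Itgav pairs with several beta chains and binds matrix proteins. Icam1 on a dendritic cell is the partner of LFA-1 on a T cell.

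Of the members, Itgam, Itgax and Icam1 are shown with the sequence around their annotated start. Itgam gave the widest difference between groups by value, and Itgax is its next protein-coding neighbour in the RefSeq annotation. Icam1 had a negative correlation with Itgam across the arrays, as low as 5.22% of 2876 probe sets had. Each window holds 250 bases before and 50 after the start (RefSeq, GRCm38.p6), written 5′ to 3′. Capitals mark GAGGAA, the core letters bound by PU.1, a factor of myeloid genes, or GGAAATTCC, a form of the NF-kB site, on either strand.

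Itgam, chr7:128062390-128062689, + strand: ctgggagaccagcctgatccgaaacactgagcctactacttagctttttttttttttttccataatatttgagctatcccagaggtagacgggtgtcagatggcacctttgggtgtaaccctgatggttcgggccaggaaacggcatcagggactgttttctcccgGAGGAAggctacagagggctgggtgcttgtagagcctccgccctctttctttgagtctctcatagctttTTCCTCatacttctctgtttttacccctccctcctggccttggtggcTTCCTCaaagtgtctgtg

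Itgax, chr7:128129300-128129599, + strand: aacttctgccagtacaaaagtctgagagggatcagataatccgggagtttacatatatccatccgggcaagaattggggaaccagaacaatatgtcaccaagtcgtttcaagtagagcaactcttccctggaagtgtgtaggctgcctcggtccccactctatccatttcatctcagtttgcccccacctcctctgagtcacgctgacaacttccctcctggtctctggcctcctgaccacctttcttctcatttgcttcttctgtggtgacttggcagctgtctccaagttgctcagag

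Icam1, chr9:21015690-21015989, + strand: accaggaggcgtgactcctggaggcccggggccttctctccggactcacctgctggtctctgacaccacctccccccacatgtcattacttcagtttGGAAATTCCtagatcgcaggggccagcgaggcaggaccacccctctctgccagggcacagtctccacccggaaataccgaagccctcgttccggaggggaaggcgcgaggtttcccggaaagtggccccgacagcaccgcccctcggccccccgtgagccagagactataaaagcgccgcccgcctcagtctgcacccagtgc

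The Itgam window held GAGGAA 3 times and the Itgax window 0 times, and the Icam1 window held GGAAATTCC once. GAGGAA occurred at least once in 28.3% of 32851 such windows of all genes and GGAAATTCC in 0.317%. The share of windows that hold GAGGAA 3 times was not computed. These matches describe letters only, and no factor was measured at them. Of the members, 7 had such a window, and GAGGAA was also found for Itgav, Itgb1 and Itgb7.

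Values are the deposited intensities, on a linear scale in arbitrary units, and some lie below 0. A noise limit was taken from the sizes of the negative values (their 95th percentile), 1701 for experiments 2 and 3 and 2203 for experiment 1. Of the 12 dendritic cell markers, 11 were above it on at least 1 array of experiments 2 and 3. The 4 measured NK cell and 7 mast cell markers were below it on every array of both designs. In experiments 2 and 3 the markers of other cell types above it on at least 1 array were 1 of 7 T cell markers (Il7r), 4 of 6 B cell markers (Pax5, Cd79b, Ms4a1 and Vpreb1), 1 of 4 erythroid markers (Klf1) and 1 of 5 fibroblast markers (Col1a2). Il7r, Pax5, Klf1 and Col1a2 were above it on all 6 arrays. In experiments 2 and 3 the H2-Ab1 probe set read 615 and 112 in CIITA-/-, 16070 and 9621 in IAb-/- and 17261 and 21348 in B6. The Ciita probe set was below the limit on all 6 of these arrays. Ciita itself read 1601 and 1639 in CIITA-/-, 398 and 644 in IAb-/- and 623 and 933 in B6. Where these probes lie relative to a deleted part cannot be read from the files, and neither can check its own deletion. H2-Ab1, whose transcription needs CIITA, was below the limit on all 3 CIITA-/- arrays (675 in experiment 1, beside 30749 in IAb-/- and 44048 in B6). The geometric mean of the Cre and BioB spike-in controls, relative to its average over the 6 arrays, was at 1.084 and 1.029 on the CIITA-/- arrays of experiments 2 and 3, at 1.374 and 0.736 on the IAb-/- arrays, and at 0.956 and 0.928 on the B6 arrays.

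On the first design 9 member probe sets, of 7 genes, were above the noise limit on every array, 1 (Itgam) was above it on some, and 7 were never above it. The share above it on every array was 29.7% over all probe sets. On the second design the numbers were 10, 0 and 8, beside 26.5% over all probe sets. The chains that did not rise above noise were Itga4 and Itgae. Itga4 had 3 probe sets, and the highest of their values on any of the 9 arrays was 832. Itgae had 4 over both designs, with a highest value of 539 on the IAb-/- array of experiment 1. Neither partner by which Itgb7 is known to reach the surface was thus measured above noise, while Itgb7 itself was. Another Itgav probe set (98366_at) stayed between 392.6 and 1073, and the other Itgb7 probe sets reached 210 (162193_f_at) and 2163 (100197_f_at).

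**Figure D1:**
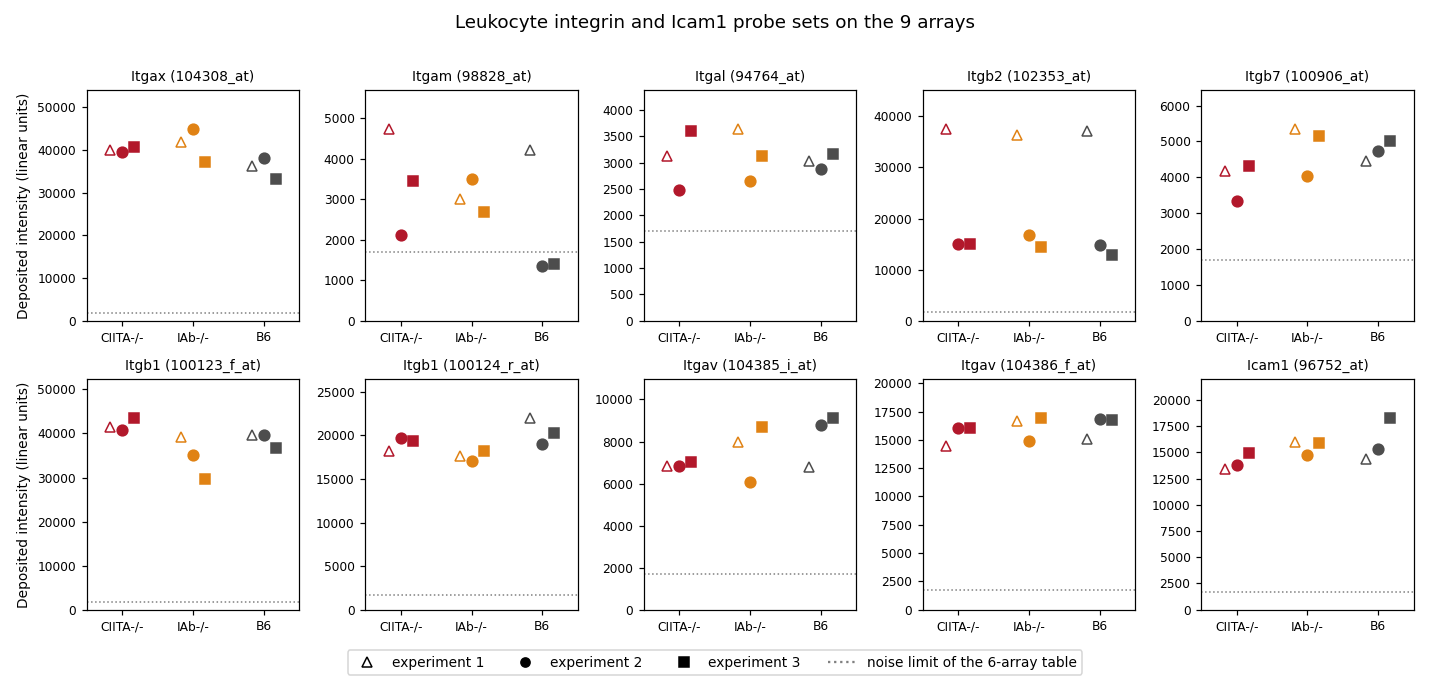
Deposited intensity (linear units, y axis from 0) of the 10 member probe sets above noise, on each of the 9 arrays by group; open triangles are experiment 1, on another array design, and the dotted line is the noise limit of 1701 of experiments 2 and 3. Itgam of experiments 2 and 3 lies below the line in B6 and above it in both mutants, while all 9 Itgax values lie between 33205 and 44986.

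Differences were fitted over the 6 arrays of experiments 2 and 3 in one limma model across 9312 probe sets. No member passed in any comparison at an adjusted p under 0.05. In CIITA-/- against B6 the model called 0.0966% of all probe sets (9, of which 2 or 0.0215% higher and 7 or 0.0752% lower), in IAb-/- against B6 0.0107% (1) and in CIITA-/- against IAb-/- 0.0215% (2), so few calls were to be found anywhere. At an unadjusted p under 0.05 (limma) there was 1 of the 10 member probe sets above noise in CIITA-/- against B6 and 1 in IAb-/- against B6, both times Itgam. In CIITA-/- against IAb-/- there was none. The shares over all 9312 probe sets, which were held to a lower limit than the noise limit, were 5.86%, 4.31% and 4.54%. Itgam is among the 10 only through its mutant arrays, so its count is no support for a difference. Both mutant groups are set against the same B6 arrays. In such bulk RNA, fewer cells of a type and less RNA per cell cannot be told apart.

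Itgam, the alpha chain of Mac-1, gave the widest difference among the members by value. It read 2124 and 3447 on the CIITA-/- arrays of experiments 2 and 3, 3508 and 2680 on the IAb-/- arrays, and 1341 and 1406 on the B6 arrays. Every mutant array thus lay above both B6 arrays, which were under the noise limit, and the mutant groups overlapped with each other. The fold over B6 has no measured base for that reason. With the B6 values raised to the noise limit, the ratio of geometric means was 1.59 in CIITA-/- and 1.80 in IAb-/-. These ratios leave out the noise of the mutant values and are not lower limits, and the fitted intervals begin below them. On the floored log2 scale the difference was 0.98 in CIITA-/- (SE 0.29, 95% interval 0.21 to 1.74, limma adjusted p = 0.78) and 1.16 in IAb-/- (SE 0.29, interval 0.39 to 1.92, limma adjusted p = 0.85).

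Experiment 1 did not show the same Itgam pattern. There the CIITA-/- array read 4751, the IAb-/- array 3019 and the B6 array 4222, so CIITA-/- was again above B6 (log2 0.17) and IAb-/- was below it (-0.48). With the experiment as a block over all 9 arrays the log2 difference was 0.71 in CIITA-/- (interval -0.26 to 1.68, limma adjusted p = 0.898) and 0.61 in IAb-/- (-0.36 to 1.59, adjusted p = 0.917). The intervals then include 0.

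Other cell types also carry Itgam, macrophages and neutrophils above all, and their markers were read beside it. The summed intensity of the 10 macrophage markers was between 23469 and 24906 on the CIITA-/- arrays of experiments 2 and 3, between 23556 and 24128 on the IAb-/- arrays, and between 18302 and 22034 on the B6 arrays. In experiment 1 it was 59095, 58190 and 61382 in CIITA-/-, IAb-/- and B6. The sum was thus higher in both mutants than in B6 in experiments 2 and 3, and highest in B6 in experiment 1. Of the 9 macrophage markers tested, 6 were higher and 3 lower (Adgre1, Mertk and C1qb) by value in each mutant than in B6, and 0 were called. Of its 10 members 4 (Csf1r, Cd68, Fcgr1 and Cd14) were above noise in experiments 2 and 3, and the complement genes C1qa, C1qb and C1qc, with Marco, Mertk and Adgre1, were below it on all 6 arrays. The 10 neutrophil markers summed to 6945 to 7916 in CIITA-/-, 10123 to 11581 in IAb-/- and 5873 to 6711 in B6, and in experiment 1 to 9474, 9667 and 6128. Of these, Ly6g, Camp and Lcn2 were above noise on at least 1 array, and Elane, Mpo, Prtn3, Ltf, Ngp, S100a8 and S100a9 on none of the 6. Both the macrophage and the neutrophil sums hold such values within noise, some below 0. In experiment 1 Ngp read -2169, -2992 and -2975 in CIITA-/-, IAb-/- and B6. Among the neutrophil markers, Lcn2 read 2595 and 2955 in CIITA-/-, 6575 and 4726 in IAb-/- and 1970 and 1704 in B6 in experiments 2 and 3. Of the 8 neutrophil markers tested, 5 were higher by value in CIITA-/- and 2 in IAb-/- than in B6, with 0 called and median log2 differences of 0.36 and -0.04. The part of these cell types in the Itgam values was not tested.

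Itgb2, the beta chain that Itgam shares with Itgal and Itgax, had smaller differences by value. It read 15054 and 15014 in CIITA-/-, 16841 and 14502 in IAb-/- and 14794 and 12941 in B6. The groups IAb-/- and B6 overlapped, and the CIITA-/- arrays lay just above B6. The log2 difference was 0.12 in CIITA-/- (interval -0.30 to 0.54) and 0.18 in IAb-/- (-0.24 to 0.59), with limma adjusted p = 0.936 and 1. In experiment 1 it read 37622, 36298 and 37068 in CIITA-/-, IAb-/- and B6.

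Itgax, the CD11c chain, was above the noise limit on all 9 arrays, with a lowest value of 33205. It read 39438 and 40779 in CIITA-/-, 44986 and 37111 in IAb-/- and 38206 and 33205 in B6. In experiment 1 the values were 40022, 41912 and 36158. Both mutants were above the B6 array in each of the 3 experiments, by log2 0.05 to 0.30 in CIITA-/- and 0.16 to 0.24 in IAb-/-. The fitted difference was 0.17 (interval -0.28 to 0.62, limma adjusted p = 0.933) in CIITA-/- and 0.20 (-0.25 to 0.65, adjusted p = 1) in IAb-/-. The highest Itgax, Itgb2 and Itgam values of the 6 arrays were all on IAb-/- replicate 2, the array with the brightest spike-in controls, and the part of that brightness was not tested.

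Itgal, the LFA-1 chain, showed no group order. It read 2478 and 3607 in CIITA-/-, 2645 and 3128 in IAb-/- and 2877 and 3159 in B6, so the 3 groups overlapped. Its log2 difference was -0.01 in CIITA-/- (interval -0.63 to 0.61) and -0.07 in IAb-/- (-0.69 to 0.55). The experiment 1 values were 3125, 3646 and 3030. Replicate arrays differed more for Itgal than for Itgax, with a pooled SD of 0.25 against 0.14 on the log2 scale, where the median of 4618 probe sets above noise on at least 2 arrays was 0.16.

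Icam1, the ligand of LFA-1 and Mac-1, lay lower in CIITA-/- than in B6 in all 3 experiments. It read 13831 and 14912 in CIITA-/-, 14793 and 15917 in IAb-/- and 15345 and 18323 in B6. The CIITA-/- arrays lay below both B6 arrays, and IAb-/- overlapped with both other groups. In experiment 1 the values were 13454, 15954 and 14366. The within-experiment log2 differences of CIITA-/- from B6 were -0.10, -0.15 and -0.30, and the fitted one was -0.22 (SE 0.16, interval -0.65 to 0.20, limma adjusted p = 0.931). Against IAb-/-, CIITA-/- was lower by value in all 3 experiments as well (-0.25, -0.10 and -0.09), with a fitted difference of -0.10 (interval -0.52 to 0.33, adjusted p = 1). IAb-/- against B6 had log2 differences of 0.15, -0.05 and -0.20 in experiments 1 to 3 (fitted -0.13, interval -0.55 to 0.29, adjusted p = 1).

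Itgb7, the beta chain of the gut-homing integrins, had the same order for CIITA-/-. It read 3334 and 4316 in CIITA-/-, 4039 and 5141 in IAb-/- and 4741 and 5016 in B6. CIITA-/- lay below B6 without overlap, and IAb-/- overlapped with both. In experiment 1 the values were 4191, 5361 and 4458. CIITA-/- differed from B6 by log2 -0.09, -0.51 and -0.22 in experiments 1 to 3, fitted at -0.36 (SE 0.21, interval -0.92 to 0.19, limma adjusted p = 0.931). It differed from IAb-/- by -0.36, -0.28 and -0.25, fitted at -0.27 (interval -0.82 to 0.29, adjusted p = 1).

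Itgb1, the most widely shared beta chain, was read by 2 probe sets, and the clearest order was between the mutants. The first (100123_f_at) read 40714 and 43612 in CIITA-/-, 35088 and 29724 in IAb-/- and 39664 and 36785 in B6. The IAb-/- arrays were the lowest on it, below both other groups, and CIITA-/- the highest. CIITA-/- exceeded IAb-/- by log2 0.38 (SE 0.16, interval -0.03 to 0.80, limma adjusted p = 1), and by 0.08, 0.21 and 0.55 within experiments 1 to 3. The second probe set (100124_r_at) read 19691 and 19369 in CIITA-/-, 17062 and 18209 in IAb-/- and 19023 and 20273 in B6. It too had IAb-/- lowest, with log2 0.15 for CIITA-/- over IAb-/- (interval -0.21 to 0.50, adjusted p = 1) and 0.05, 0.21 and 0.09 within experiments. In experiment 1 the first probe set read 41391, 39275 and 39670 and the second 18196, 17609 and 22039, in CIITA-/-, IAb-/- and B6. IAb-/- was below B6 on both probe sets in all 3 experiments, by -0.01 to -0.32 on the log2 scale. For CIITA-/- against B6 the probe sets disagreed, at 0.14 and -0.01. Over the 6 within-experiment differences of the mutants from B6, the probe sets had the same sign in 4. By the array maker's naming, f marks probes shared by a family of sequences and r probes that break a design rule, so either may read other transcripts too.

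Itgav, the alpha chain of matrix-binding integrins, was also read by 2 probe sets above noise. On the first (104385_i_at) the CIITA-/- arrays read 6852 and 7037, the IAb-/- arrays 6089 and 8695 and the B6 arrays 8772 and 9142. Both mutants lay below B6, with a log2 difference of -0.37 in CIITA-/- (interval -0.93 to 0.19, limma adjusted p = 0.931) and -0.30 in IAb-/- (-0.86 to 0.26, adjusted p = 1). In experiment 1 it read 6855, 7995 and 6804, an order that differs from that of experiments 2 and 3. The second (104386_f_at) read 16080 and 16093 in CIITA-/-, 14904 and 16975 in IAb-/- and 16882 and 16752 in B6. Its differences were -0.06 in CIITA-/- (interval -0.44 to 0.31) and -0.08 in IAb-/- (-0.45 to 0.29), with the same sign as the first probe set. Its CIITA-/- arrays lay below both B6 arrays, by a small margin, and its IAb-/- arrays spanned them. The experiment 1 values of this probe set were 14494, 16670 and 15068. Within experiments the probe sets agreed in sign in 4 of 6 differences from B6.

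**Figure D2:**
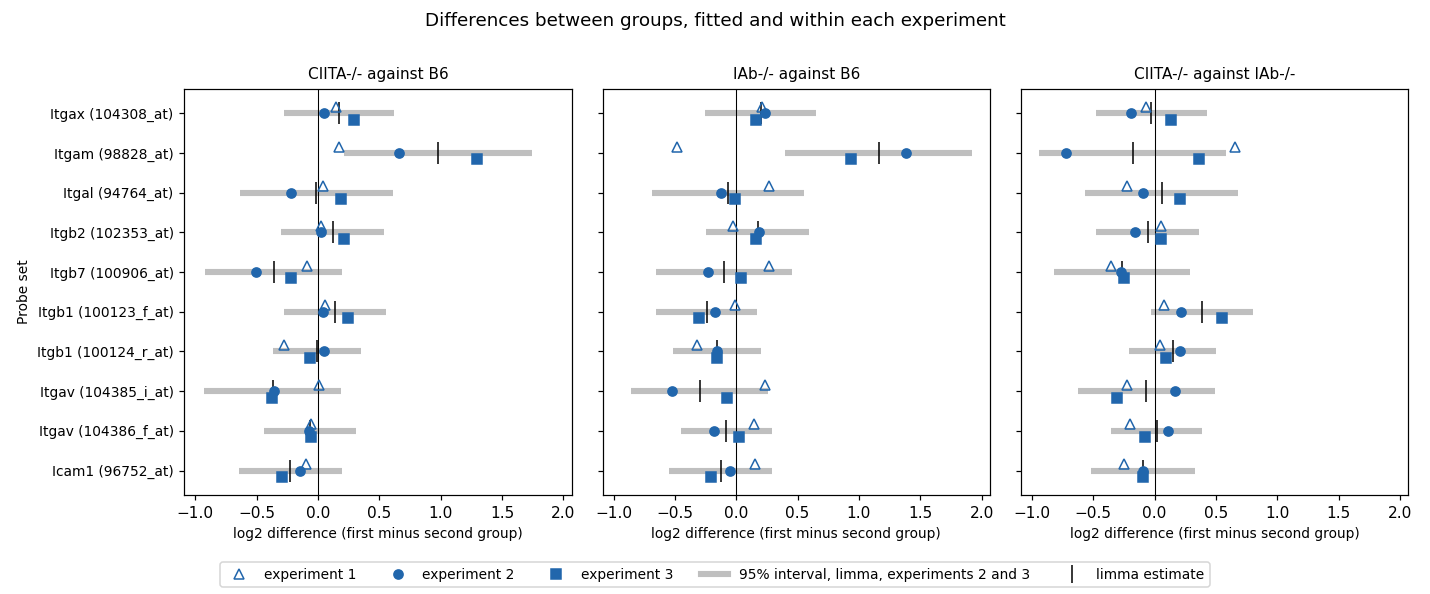
Log2 difference of the first from the second named group for each member probe set above noise; black ticks are the limma estimates of experiments 2 and 3 with their 95% intervals in grey, and blue symbols are the differences within each experiment. Only the Itgam intervals of CIITA-/- and IAb-/- against B6 lie clear of 0, and the experiment 1 triangle of Itgam lies outside both.

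The order of the groups was also counted over the 10 member probe sets above noise. CIITA-/- lay above B6 without overlap on 4 (Itgax, Itgam, Itgb2 and the first Itgb1 probe set), where 22.6% of 4618 probe sets above noise did, though Itgb2 (-0.05) and that Itgb1 probe set (-0.02) turned, and Itgax came to 0.01, with arrays scaled to the spike-in controls. It lay below B6 on 4 (Itgb7, both Itgav probe sets and Icam1), where 18.1% did. In all 3 experiments it was higher on 4 of 10, against 16.8% of 3600 probe sets, and lower on 3 (Itgb7, the second Itgav probe set and Icam1), against 13.9%. With 10 probe sets of 8 genes, some of them read by a pair, these counts are a description, and Itgam counts among the 10 only through its mutant arrays. The smallest two-sided p that flipping the signs of 3 experiments can give is 0.25, so the experiments alone could not pass. IAb-/- lay above B6 without overlap on 1 (Itgam), against 16.8%, and below it on 3 (both Itgb1 probe sets and the first Itgav probe set), against 15.7%. It was higher in all 3 experiments on 1 (Itgax), against 13.9%, and lower on 2 (both of Itgb1), against 13.8%. CIITA-/- lay above IAb-/- in all 3 experiments on the 2 Itgb1 probe sets, against 12% of probe sets, and below it on 2 (Itgb7 and Icam1), against 13.6%. Without overlap, CIITA-/- was above IAb-/- on the same 2 Itgb1 probe sets and below it on none, each against 12.1%.

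The members' differences were of ordinary size. Their median absolute log2 difference was 0.16 in CIITA-/- against B6, 0.17 in IAb-/- against B6 and 0.08 in CIITA-/- against IAb-/-, where the medians over 4618 probe sets above noise were 0.13, 0.12 and 0.10. Their median signed difference was -0.01, -0.09 and -0.04, and the medians over all probe sets tested were 0.014, 0.005 and 0.004.

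The member probe sets were also set against each other across arrays. With each log2 value centred on the mean of its experiment, Itgam and Itgb2 had a Pearson r of 0.95 (Spearman 0.97) over the 9 arrays, and 0.91 without the 2 arrays farthest from the median of Itgam. The B6 values of Itgam in experiments 2 and 3 are within noise, so every r with Itgam given here rests in part on values with no measured level. Itgax had r = 0.70 with Itgam (0.43 without 2 arrays) and r = 0.81 with Itgb2 (0.65). Itgal, the remaining partner of Itgb2, had r = 0.09 with it. The first Itgav probe set had r = -0.91 with Itgam and Icam1 had -0.75 (-0.53 without 2 arrays), and Itgb7 had 0.77 with Icam1. Of 2876 shared probe sets above noise on all 9 arrays, 0.209% had an r with Itgam as high as that of Itgb2. As high as that of Itgax were 6.33%. An r as low as that of the first Itgav probe set was found for 0.522%, and as low as that of Icam1 for 5.22%. The second Itgav probe set had r = -0.76 with Itgam, and 4.59% had one as low. The arrays share scaling and group, 1 CIITA-/- array carries an inferred experiment number, and these values are a description with no test. The summed macrophage markers had r = 0.82 with Itgam (0.65 without 2 arrays), and the neutrophil markers 0.54 (0.18). How often sums of other genes reach such an r was not computed.

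**Figure D3:**
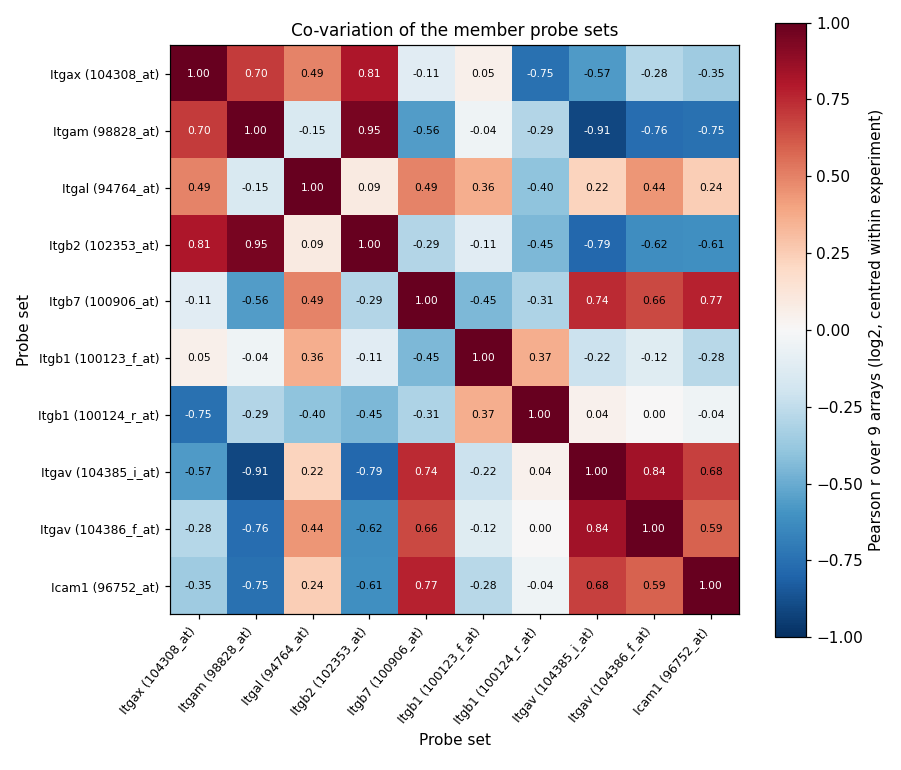
Pearson r between member probe sets over the 9 arrays, each log2 value centred within its experiment (red positive, blue negative). Itgam, Itgb2 and Itgax are red against each other, at 0.70 to 0.95, and blue against both Itgav probe sets and Icam1. Itgal, drawn between Itgam and Itgb2, has -0.15 with Itgam and 0.09 with Itgb2.

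**Figure D4:**
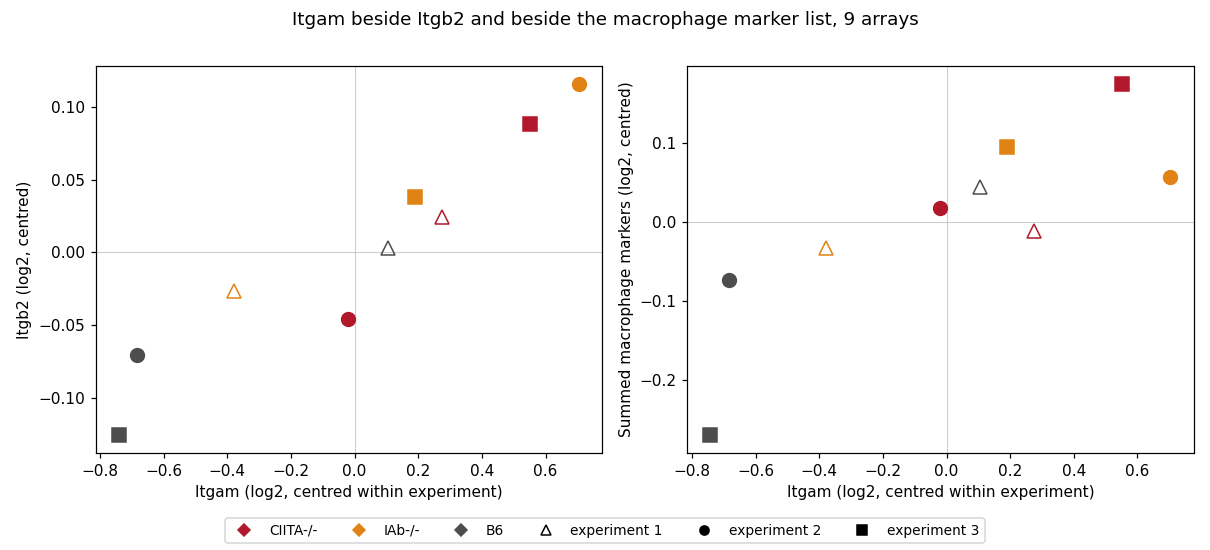
Itgam (x axis) against Itgb2 (left) and the summed macrophage markers (right), as log2 values centred within each experiment, 1 point an array. The B6 arrays of experiments 2 and 3 lie at the lower left of both panels, and the B6 array of experiment 1 does not.

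By a rule on likeness over the same centred values, the genes most like Itgax were Mbd3 (r = 0.97), Ctsb (0.96) and Ldha (0.95). Those most like Icam1 were Psmg4 (0.95), Net1 and Gucd1 (both 0.94), each over 9 arrays. They are the highest of 2876 shared probe sets above noise on all 9 arrays. With so few arrays, such a search can give r this high without any relation between the genes, and none was tested.

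The wider adhesion machinery was read from 3 lists, with 1 probe set a gene, and 0 members passed in either direction in any comparison. Of 17 other integrin chains 9 were measured, and only Itga3, an alpha chain that binds laminin, was above noise on any array. Its arrays read 3226 and 3169 in CIITA-/-, 1412 and 2813 in IAb-/- and 2886 and 2963 in B6. In experiment 1 Itga3 read 2738, 3597 and 3026, with IAb-/- the highest. The list's 6 tested members had a median log2 difference of -0.42 in CIITA-/- and -0.14 in IAb-/- against B6, beside 0.015 and 0.008 over 6711 genes, with 5 of the 6 within noise. Itga6, Itgb3, Itga7 and Itga2 had the smallest p-values of the list in CIITA-/- against B6, all at limma adjusted p of 0.884 or more and all within noise.

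Of 14 integrin ligands 10 were measured and 5 were above noise, with a median of -0.14 in CIITA-/- and 0.13 in IAb-/- over the 7 tested. Fn1, fibronectin, a matrix ligand of Itga4 with Itgb1, had the smallest p of the list in both comparisons. It read 3565 and 6791 in CIITA-/-, 6061 and 4148 in IAb-/- and 2272 and 2789 in B6, so both mutants lay above B6 without overlap. Of 4618 probe sets above noise, 22.6% did so in CIITA-/- and 16.8% in IAb-/-. In experiment 1 Fn1 read 6651, 5404 and 3650, the same direction. Of 3600 probe sets, 16.8% were higher than B6 in all 3 experiments in CIITA-/- and 13.9% in IAb-/-. The log2 difference was 0.97 in CIITA-/- (SE 0.39, interval -0.05 to 1.98, limma adjusted p = 0.864) and 0.99 in IAb-/- (interval -0.02 to 2.01, adjusted p = 1). F11r, a junction protein that binds LFA-1, had -0.42 in CIITA-/- (interval -0.91 to 0.06, adjusted p = 0.893) and -0.15 in IAb-/-. Vcam1 and Icam2, known ligands of Itga4 and of LFA-1, were below noise on all 9 arrays.

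Of 28 cytoplasmic partners, which link integrin tails to actin and to kinases, 21 were measured and 17 were above noise in experiments 2 and 3. The 20 tested had a median of -0.06 in CIITA-/- and -0.04 in IAb-/-. Vav1, an exchange factor that acts below integrins and antigen receptors, read 2858 and 3071 in IAb-/- and 2254 and 2139 in B6. That is a log2 difference of 0.43 (SE 0.14, interval 0.08 to 0.79, limma adjusted p = 1). In experiment 1 it read 3842 in IAb-/- and 3444 in B6. Ilk, a kinase-like adaptor at integrin tails, had 0.19 in IAb-/- (interval -0.17 to 0.55, adjusted p = 1). Fermt3, the kindlin that activates leukocyte integrins, had 0.15 in CIITA-/- (interval -0.20 to 0.49, adjusted p = 0.931), and Cyth1, which binds the Itgb2 tail, -0.59 (interval -1.43 to 0.25, adjusted p = 0.931). In experiment 1 Cyth1 was within noise, at 2017 in CIITA-/- and 1858 in B6, the opposite order.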

How the data were processed

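The authors deposited an intensity for each probe set on each array, on a linear scale. The algorithm is not named in the sources used here. Their 2% trimmed means lie between 2502.2 and 2502.6 for the 6 arrays of experiments 2 and 3 and at 2500 for experiment 1. All arrays thus had nearly the same trimmed mean, and the scaling step is not described. No value column was left unused. Gene symbols are those of the platform annotation, and only probe sets with 1 symbol were named. Sequences come from RefSeq (GRCm38.p6).

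Each table's 30th percentile (123.5 and 93.2) served as a floor for lower values before log2 was taken. Probe sets over the floor on 2 or more arrays entered lmFit and eBayes of limma 3.58.1 (R 4.3.3) over the 3 groups, with 3 residual degrees of freedom, Benjamini-Hochberg adjustment over all 9312 of them and a threshold of 0.05. The fit was tested on simulated data. Differences within each experiment were added after seeing the data. The floor shrinks a difference in which a value lies below it. Between the floor and the noise limit, differences can also be wide without a measured level. Itgae (93961_at), within noise throughout, had log2 2.53 in IAb-/- against B6 of experiment 1.

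Titles number the experiments. A CIITA-/- title without a number was given 2, the only one left. Deviations from group means of same-numbered arrays correlated at 0.133, 0.126 and 0.307 over 4618 probe sets. The numbers were taken as pairs for the within-experiment differences, the centred values and the fits with the experiment as a block. The main fit held the groups only, so its intervals and p-values leave the pairing out.

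The members and lists, and the tests and alternatives, were chosen with earlier results of these data known. The genes named were every member, the 3 genes most like Itgax and Icam1, and in each list of other adhesion genes those called or, with none, those among the 4 with the smallest p in a comparison with B6. Those of the 4 within noise are mostly left out of the text, and Vcam1 and Icam2 were named for their known role. The noise limit was likewise set with the data known.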

Additional observations from a re-analysis of the deposited data

How the results depend on the processing

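No member probe set passed under any of 15 alternatives in any comparison; the smallest adjusted p among them was 0.328, for CIITA-/- against B6. Of 150 member values per comparison, 142 kept their direction in CIITA-/- against B6, 145 in IAb-/- against B6 and 137 in CIITA-/- against IAb-/-. The replicate block thus changed no member's call. Without 1 array, the lone array of its group was assumed to vary like the others. Calls over the whole table moved more: in CIITA-/- against B6 9 became 18 with the floor at the 25th percentile (chosen after seeing the data in place of the 20th, which is below 0 and was not run), 5 at the 40th, 5 with a generalised log2, 14 without a filter, 4 above noise only, 0 with the replicate block on 6 arrays, 4 with the block on 9, and 0 to 1 leaving out 1 array. In IAb-/- against B6 1 became 4, 0, 0, 5, 0, 0, 0 and 0 under the same settings, 3 with quantile normalization and 2 scaled to spike-ins. In CIITA-/- against IAb-/- 2 became 6 at the 25th percentile, 1 at the 40th, 7 unfiltered, 4 above noise only, 7 scaled to spike-ins, 0 with the 6-array block and 0 to 1 leaving out 1 array. The generalised log2 and the 6-array block test the same 9312 probe sets on the same arrays. The cause of these shifts was not tested.

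Itgam kept its direction against B6, at 0.63 to 1.33 in CIITA-/- without 1 array and 0.96 to 1.35 in IAb-/-. Leaving out CIITA-/- replicate 2 gave the 1.33 and leaving out CIITA-/- replicate 3 the smallest. Scaling to spike-ins shifted the median of all probe sets by -0.15 in CIITA-/- against B6, and there Itgb2 (-0.05) and the first Itgb1 probe set (-0.02) reversed. In CIITA-/- against B6 Itgal also reversed with the block on 9 arrays (0.01), ranging from -0.28 to 0.26 without 1 array, and the second Itgb1 probe set with quantile normalization (0.00), ranging from -0.05 to 0.04. In IAb-/- against B6 the block on 9 arrays reversed Itgal (0.04) and Itgb7 (0.02). Without 1 array Itgal ranged from -0.19 to 0.05, Itgb7 from -0.27 to 0.08 and the second Itgav probe set from -0.17 to 0.01. In CIITA-/- against IAb-/- the block on 9 arrays reversed Itgam (0.10), Itgal (-0.04) and the second Itgav probe set (-0.06), and spike-in scaling Itgal (-0.02) and the second Itgav probe set (-0.05). Ranges there without 1 array were -0.17 to 0.11 for Itgax, -0.53 to 0.17 for Itgam, -0.22 to 0.33 for Itgal, -0.16 to 0.05 for Itgb2, -0.32 to 0.19 for the first Itgav probe set and -0.08 to 0.11 for the second. Without 1 array, the values against B6 also ranged in CIITA-/- from -0.35 to -0.10 for Icam1, from -0.55 to -0.18 for Itgb7, from 0.07 to 0.27 for Itgax and from 0.02 to 0.22 for Itgb2. In IAb-/- they ranged from 0.06 to 0.34 for Itgax, from 0.07 to 0.28 for Itgb2, from -0.26 to 0.00 for Icam1, from -0.36 to -0.12 for the first Itgb1 probe set and from -0.56 to -0.04 for the first Itgav probe set.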

Other observations

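Some members read brighter on the array design of experiment 1 than on that of experiments 2 and 3. The median Itgb2 intensity was 37068 in experiment 1 and 14904 in experiments 2 and 3, a ratio of 2.49, which 1.08% of 2876 shared probe sets above noise on all 9 arrays reached. Itgam had medians of 4222 and 2402, a ratio of 1.76, reached by 5.49%. Itgax, Itgal, the Itgb1 probe sets, Itgb7, the Itgav probe sets and Icam1 had ratios between 0.87 and 1.04, below the median of 1.149 over the same probe sets. The summed macrophage markers were between 58190 and 61382 in experiment 1 and between 18302 and 24906 in experiments 2 and 3. Adgre1, the gene of the macrophage antigen F4/80, read 1937 (within noise) in CIITA-/-, 2330 in IAb-/- and 3798 in B6 in experiment 1, and was within noise in experiments 2 and 3. The scaling step is not described, and the experiment and the array design cannot be told apart.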
